A study of Caenorhabditis elegans with 44 samples.

Results

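MicroRNAs of *Caenorhabditis elegans* carry numbers given in the order in which they were described, and the group reported here holds the later-named ones from miR-1018 to miR-2220. Members were the mature strands of that range in the deposited count table, other than miR-1829a, miR-1829b and miR-1829c, with a mean of at least 5 counts per library. This left 34 of the 67 strands so named, out of 437 strands in the table and 300 that reached the same mean. The least abundant strand inside the limit was miR-2208b-3p (mean 5.07 counts) and the most abundant one outside it was miR-1020-5p (4.23 counts). Small RNAs were sequenced from untreated, genetically wild-type whole worms of the N2 strain, grown at 25 °C on plates from synchronized first-stage (L1) larvae. A single library was made for each hour from 5 h to 48 h after plating, 44 in all, a span from the first larval stage to young adulthood. No hour had a replicate, so the scatter of hours around a fitted curve or within a window of hours takes the place of replicate error, and every p-value measures scatter within this 1 time course of pooled animals.

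A microRNA is cut from a hairpin whose 2 arms give a 5p and a 3p strand. An Argonaute protein usually keeps 1 of them, the guide, which pairs with messenger RNAs and represses them, while the other, the passenger, is mostly degraded. Most hairpins are released from their transcript by Drosha with its partner Pasha and then cut by Dicer. Mirtrons are short introns that fold into a hairpin after splicing and reach Dicer without Drosha. In larvae, transcripts of many genes rise and fall once per molting cycle, which lasts about 7 h here, and other transcripts change gradually, so both kinds of change were tested. Levels are given as normalised counts, that is, each count divided by its library's total and multiplied by the mean total of 10571268. Whole worms were sampled, so that fewer cells of a type and less RNA per cell cannot be told apart.

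The median library held 10678292 counts and the deepest 14672735, while the 38 h library held 1669246. As stage checks, lin-4-5p averaged 27607 normalised counts at 8 to 14 h against 991 at 5 to 7 h, and let-7-5p 111157 at 29 to 35 h against 214 at 8 to 14 h. The guides of the miR-35 family, microRNAs of embryos and the germ line, had medians of 38075 normalised counts at 29 to 35 h, 227400 at 36 to 42 h and 1226400 at 43 to 48 h.

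The later-named strands were scarce. Together they took between 0.0478% of a library (45 h) and 0.160% (7 h). Their median sum, in ppm of the library, was 1449 at 5 to 7 h, 1463 at 8 to 14 h and 902 at 15 to 21 h. It was 770 at 22 to 28 h, 851 at 29 to 35 h, 762 at 36 to 42 h and 573 at 43 to 48 h. At 5 h, miR-1022-5p and miR-1018 gave 7266 and 3673 of the group's 15287 counts, and at 48 h 827 and 667 of 5924. The sum thus does not describe the typical member. Of the 34 members, 31 lay in the lower part of the 300 strands by mean level, 20 averaged under 100 normalised counts, and their median was 60.3 against 647 over all strands tested. The exceptions at the top were miR-1022-5p (mean 2864 normalised counts, position 95 of 300), miR-1820-5p (1349, position 120) and miR-1018 (1141, position 126). The next were miR-1830-3p (590), miR-1020-3p (526) and miR-1817 (526).

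Levels were compared between stages. The hours were divided into 7 windows, which began at 5, 8, 15, 22, 29, 36 and 43 h, and those between the first and the last window span 7 h each, about 1 molting cycle. With edgeR's quasi-likelihood test and Benjamini-Hochberg adjustment over all 300 strands, 33 of 34 members differed between windows, where 96.0% of all strands tested did, and 25 of 34 with autocorrelated residuals. The exception in the first count was miR-2217a-3p (adjusted p = 0.222), which averaged between 6.13 and 11.7 normalised counts in the windows.

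The window of the highest mean varied: 11 members were highest at 5 to 7 h, 5 at 8 to 14 h, 1 at 15 to 21 h, 3 at 22 to 28 h, 8 at 29 to 35 h, 4 at 36 to 42 h and 2 at 43 to 48 h. The distribution over all strands tested was of like shape, with 29.0% highest at 5 to 7 h (32.4% of members) and 22.3% at 29 to 35 h (23.5% of members). The hours of the highest window stood wholly above those of the second highest for 5 members, miR-1022-5p, miR-1821-3p and miR-2208a-5p at 5 to 7 h, miR-2216-5p at 36 to 42 h and miR-2209a-3p at 43 to 48 h, and for 12.0% of all strands. For the others the leading window and the next overlapped. The highest and the lowest window did not overlap for 29 members, and for 89.7% of all strands.

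**Figure D1:**
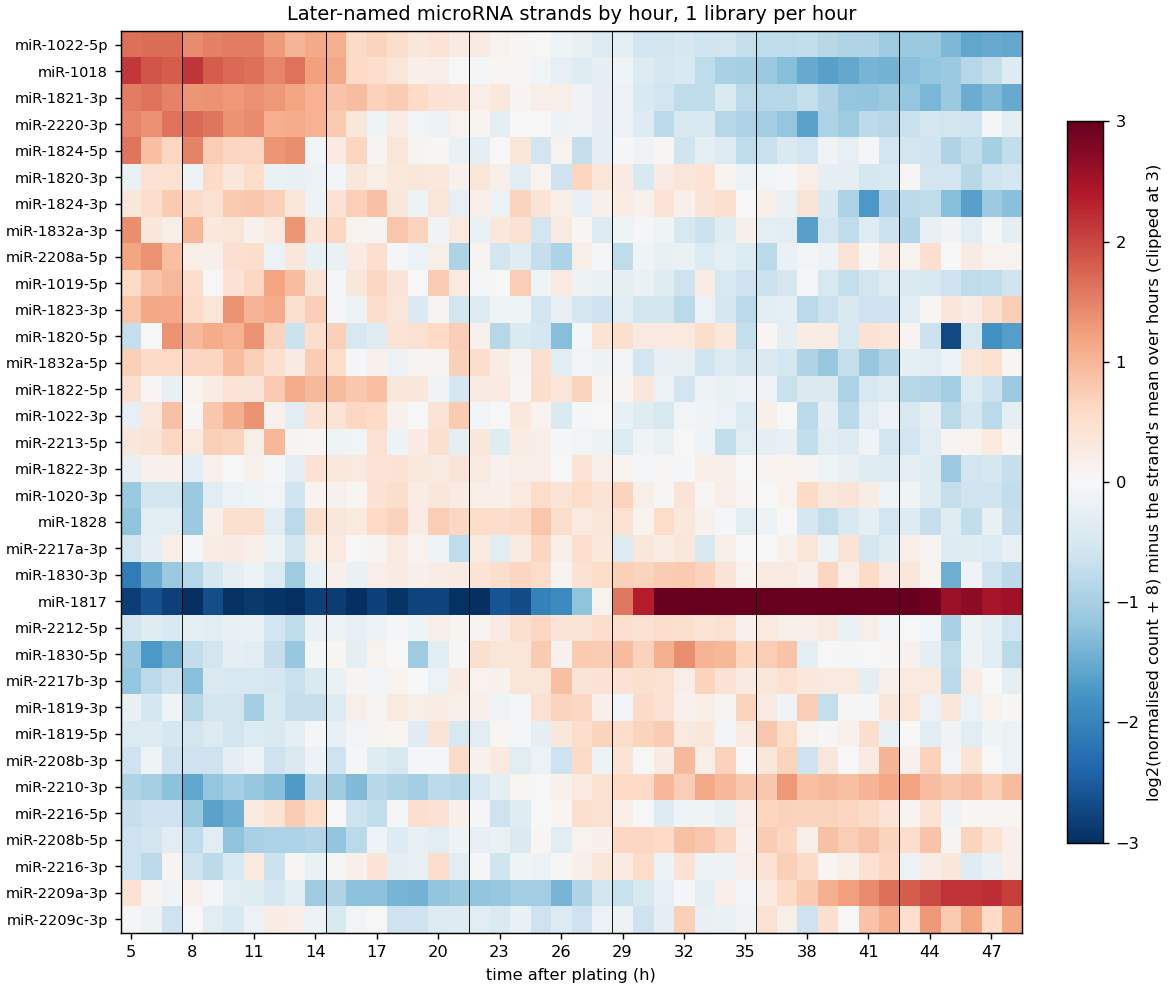
Level of each of the 34 strands (rows, ordered by the window of their highest mean) in each hourly library (columns), as log2(normalised count + 8) minus the strand's own mean over hours, clipped at 3 on the colour scale. Vertical lines part the 7 windows. The rows at the top are high before 15 h, miR-1817 changes over within a few hours after 26 h, and miR-2209a-3p is highest after 42 h.

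The strands that were highest at the start included the most abundant ones. The guide miR-1022-5p had 7140, 7243 and 7235 normalised counts in the 3 libraries of 5 to 7 h, a median of 6008 at 8 to 14 h (4618 to 6587), 1531 at 29 to 35 h (1378 to 1843) and 834 at 43 to 48 h (764 to 1044). No library of 29 to 35 h reached the lowest of 8 to 14 h, and the fitted difference between these windows was -1.90 ± 0.11 log2 units (SE, adjusted p = 7.15e-18). Its hairpin lies on chromosome X (WBcel235, 6435425 to 6435512, minus strand, the build of every position given here) and in no gene of the same strand. The guide miR-1821-3p followed the same order, with medians of 1191 at 5 to 7 h, 1023 at 8 to 14 h, 270 at 29 to 35 h and 156 at 43 to 48 h, and differed by -1.86 ± 0.11 log2 units between 29 to 35 h and 8 to 14 h (adjusted p = 7.15e-18). For both strands no library of 43 to 48 h reached the lowest of 29 to 35 h.

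Another early pair came from a single stretch of chromosome X. The hairpins of miR-1018 (1879458 to 1879513) and miR-2220 (1873827 to 1873884) lie 5574 nt apart on the plus strand, and each has 10 other microRNA genes within 10 kb. The strand miR-1018 had medians of 3085 normalised counts at 5 to 7 h, 2616 at 8 to 14 h, 582 at 29 to 35 h, 304 at 36 to 42 h and 414 at 43 to 48 h. The strand miR-2220-3p had 219, 203, 51.2, 32.7 and 48.3 in the same windows. Between 29 to 35 h and 8 to 14 h miR-1018 differed by -2.27 ± 0.16 and miR-2220-3p by -2.08 ± 0.15 log2 units (adjusted p = 7.27e-16 and 2.61e-15), with no overlap of libraries. From 36 to 42 h to 43 to 48 h their means were 1.45-fold and 1.65-fold higher, a contrast that was not tested. The libraries of these windows overlapped for miR-1018 but not for miR-2220-3p. Of the other genes of the stretch, 6 strands reached a mean of 5 counts, and 6 were called falling between 8 h and 35 h in the same fit, where 27.0% of all strands tested fell, with values from miR-4807 (-3.73 log2 units) to miR-4923b (-1.13, adjusted p = 0.0488).

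The group has 3 strands listed as mirtron products, miR-1018, miR-1019-5p and miR-1020-3p, and the annotation shows a filled intron for the last 2. The hairpin of miR-1019 fills a 69-nt intron of dyf-5, a kinase gene of ciliated neurons, and that of miR-1020 fills a 70-nt intron of T16G12.1 on chromosome III, without a base left over at either end. The hairpin of miR-1018 lies in no annotated intron of a protein-coding gene. The strand miR-1019-5p, scarce at a mean of 8.12 normalised counts, had 14.7, 19.0 and 21.5 at 5 to 7 h, and differed by -1.86 ± 0.31 log2 units between 29 to 35 h (1.75 to 9.55) and 8 to 14 h (6.90 to 26.0), with overlapping libraries (adjusted p = 1.18e-06). The strand miR-1020-3p had medians of 342 at 5 to 7 h, 447 at 8 to 14 h, 675 at 22 to 28 h, 581 at 29 to 35 h and 331 at 43 to 48 h, and its difference of 0.54 ± 0.14 between 29 to 35 h and 8 to 14 h was under 1 log2 unit. Outside the group, the mirtron miR-62, which fills a 58-nt intron of ugt-50, averaged 1988 at 29 to 35 h and 4843 at 8 to 14 h.

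**Figure D2:**
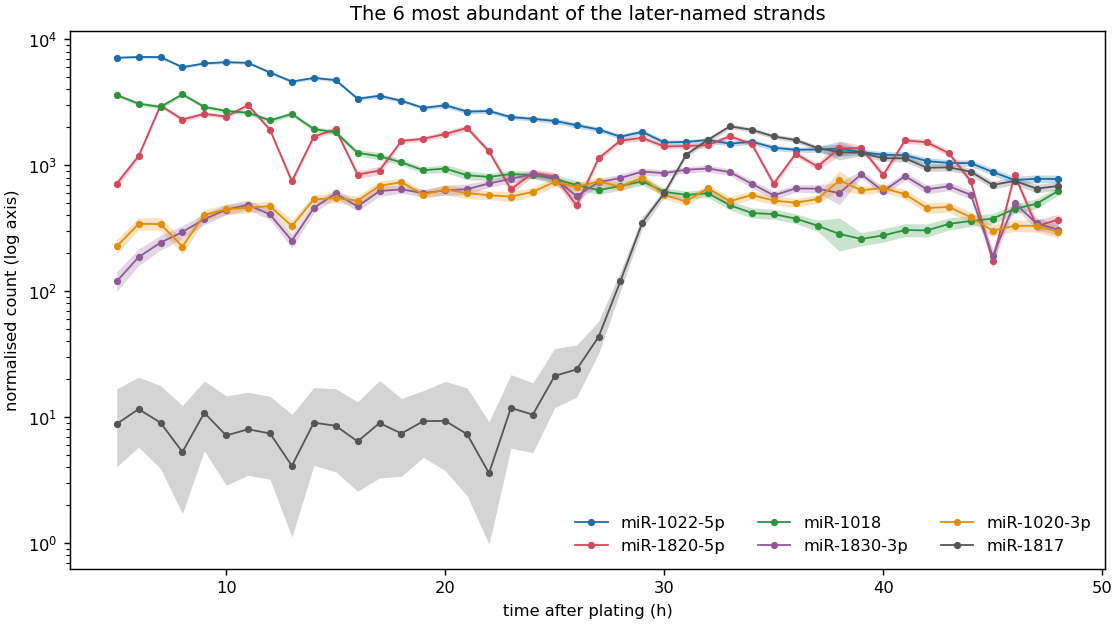
Normalised counts by hour (log axis) of the 6 strands with the highest means, 1 library per hour, with the 95% Poisson interval of each count as a band, which covers counting error alone. The strands miR-1022-5p and miR-1018 start at 7140 and 3610 and lose level through larval life, miR-1817 stays between 3.60 and 24.0 until 26 h and reaches 2040 at 33 h, and miR-1820-5p moves up and down between neighbouring hours.

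Other strands were highest from the last larval cycle on. The largest difference in the group belonged to miR-1817, whose hairpin lies on chromosome I outside any gene of the same strand. It had 3.60 to 24.0 normalised counts in every library from 5 h to 26 h. The next libraries, from 27 h to 32 h, had 43.3, 120, 351, 600, 1214 and 1594. Its highest value was 2040 at 33 h (95% Poisson interval 1958 to 2124). Later libraries held less, with 1588 at 36 h, then 957 (42 h) and 685 (48 h). The difference between 29 to 35 h and 8 to 14 h was 7.47 ± 0.50 log2 units (adjusted p = 1.58e-16), a 178-fold difference, and the lowest library of the later window (351) stood far above the highest of the earlier one (10.8). The course was a step and not a straight line, so that the fitted change of 10.4 ± 1.1 log2 units over 8 h to 35 h is a poor description of it. With autocorrelated residuals the larval window differences of miR-1817 (1.04, adjusted p = 0.298), miR-1018 (-0.01, adjusted p = 0.991) and miR-1022-5p (0.08, adjusted p = 0.855) lost their calls. The changes of these 3 strands over 8 h to 35 h kept theirs in that fit.

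Other risers were less abundant. The guide miR-2210-3p, whose hairpin on chromosome IV (10914618 to 10914678, plus strand) overlaps an exon of ZK593.2, had medians of 51.3 normalised counts at 8 to 14 h (32.9 to 66.4), 61.0 at 15 to 21 h, 131 at 22 to 28 h, 222 at 29 to 35 h (192 to 283) and 238 at 43 to 48 h. Its difference between 29 to 35 h and 8 to 14 h was 2.23 ± 0.14 log2 units (adjusted p = 4.4e-17), and that between 43 to 48 h and 29 to 35 h was 0.07 ± 0.14 (adjusted p = 0.638). The guide miR-2208b-5p had 45.8 at 29 to 35 h (30.6 to 56.7) against 10.3 at 8 to 14 h (7.16 to 19.7), a difference of 1.99 ± 0.20 log2 units (adjusted p = 1.23e-11). Its passenger miR-2208b-3p had 4.36 to 16.0 at 29 to 35 h against 0 to 3.02 at 8 to 14 h (2.54 ± 0.62, adjusted p = 0.00033). This strand reached the limit of 5 counts through the window of 29 to 35 h, with a mean of 4.24 in the other libraries, so that its difference is a description. Libraries of the windows did not overlap for either strand.

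The hairpin of miR-1819 gave few counts, and both strands were higher at 29 to 35 h, at 7.29 to 17.5 against 0 to 3.72 at 8 to 14 h for miR-1819-3p (2.43 ± 0.35 log2 units, adjusted p = 8.15e-08) and at 4.58 to 14.4 against 1.02 to 5.03 for miR-1819-5p (2.04 ± 0.37, adjusted p = 6.1e-06). The libraries of the windows overlapped for miR-1819-5p and not for miR-1819-3p. The mean of miR-1819-5p outside 29 to 35 h was 4.89 counts, so that it too passed the limit through the window where it is high. It lies 67 nt from the hairpin of miR-2212 on the plus strand of chromosome X. The guide miR-2212-5p was far more abundant, with medians of 371 at 29 to 35 h and 217 at 8 to 14 h, and its difference of 0.81 ± 0.12 log2 units did not reach 1, although the libraries of the windows did not overlap. Its fitted change over 8 h to 35 h did (1.12 ± 0.13, adjusted p = 4.43e-08).

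In all, 10 members were higher and 12 lower by at least 1 log2 unit at 29 to 35 h than at 8 to 14 h, at an adjusted p under 0.05, and 12 were not called. The 10 include miR-2208b-3p and miR-1819-5p, which passed the limit through the later window. Of all strands tested, 22.7% were higher and 21.0% lower. The median difference was -0.01 log2 units over members and 0.00 over all strands. The hours did not overlap for 9 members in the upward direction (24.0% of all strands) and 7 in the downward direction (22.7%). The remaining members called higher were miR-1830-5p (1.55), miR-1830-3p (1.09), miR-2217b-3p (1.19) and miR-2216-3p (1.16), and the remaining ones called lower were miR-1823-3p (-3.23), miR-1022-3p (-1.79), miR-2213-5p (-1.66), miR-1824-5p (-1.37), miR-2208a-5p (-1.17), miR-1832a-3p (-1.14) and miR-1832a-5p (-1.09). The call of miR-2216-3p was lost without the library of 8 h, 9 h, 12 h or 30 h (0.94 to 1.63 over all libraries left out), and that of miR-1832a-3p without the library of 13 h (-0.93). The linear term over 8 h to 35 h called 11 members rising, again with miR-2208b-3p and miR-1819-5p, and 13 falling, where 27.0% of all strands rose and 27.0% fell. The largest rises after miR-1817 were those of miR-2208b-3p (3.06), miR-2210-3p (3.01), miR-1819-5p (2.55), miR-2208b-5p (2.48) and miR-1819-3p (2.35). The largest falls were those of miR-1823-3p (-4.35), miR-1018 (-2.89), miR-2220-3p (-2.58), miR-1022-5p (-2.43), miR-1821-3p (-2.38) and miR-1019-5p (-2.20).

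By blocks of names, the 5 members from miR-1018 to miR-1022 gave 4 falls, among them both strands of miR-1022, and no rise over 8 h to 35 h. The 16 from miR-1817 to miR-1834 gave 5 rises and 6 falls, and the 13 from miR-2207 to miR-2220 gave 6 rises and 3 falls. Of all strands tested, 27.0% rose and 27.0% fell, the shares to set beside every list of this paragraph. Median changes were -2.20, -0.27 and 0.28 log2 units, against 0.04 over all strands tested. Of 11 members in an intron of a gene on the same strand 3 rose and 4 fell, and of 12 within 10 kb of another microRNA gene 5 rose and 5 fell. These lists are short and hold both strands of some hairpins.

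**Figure D3:**
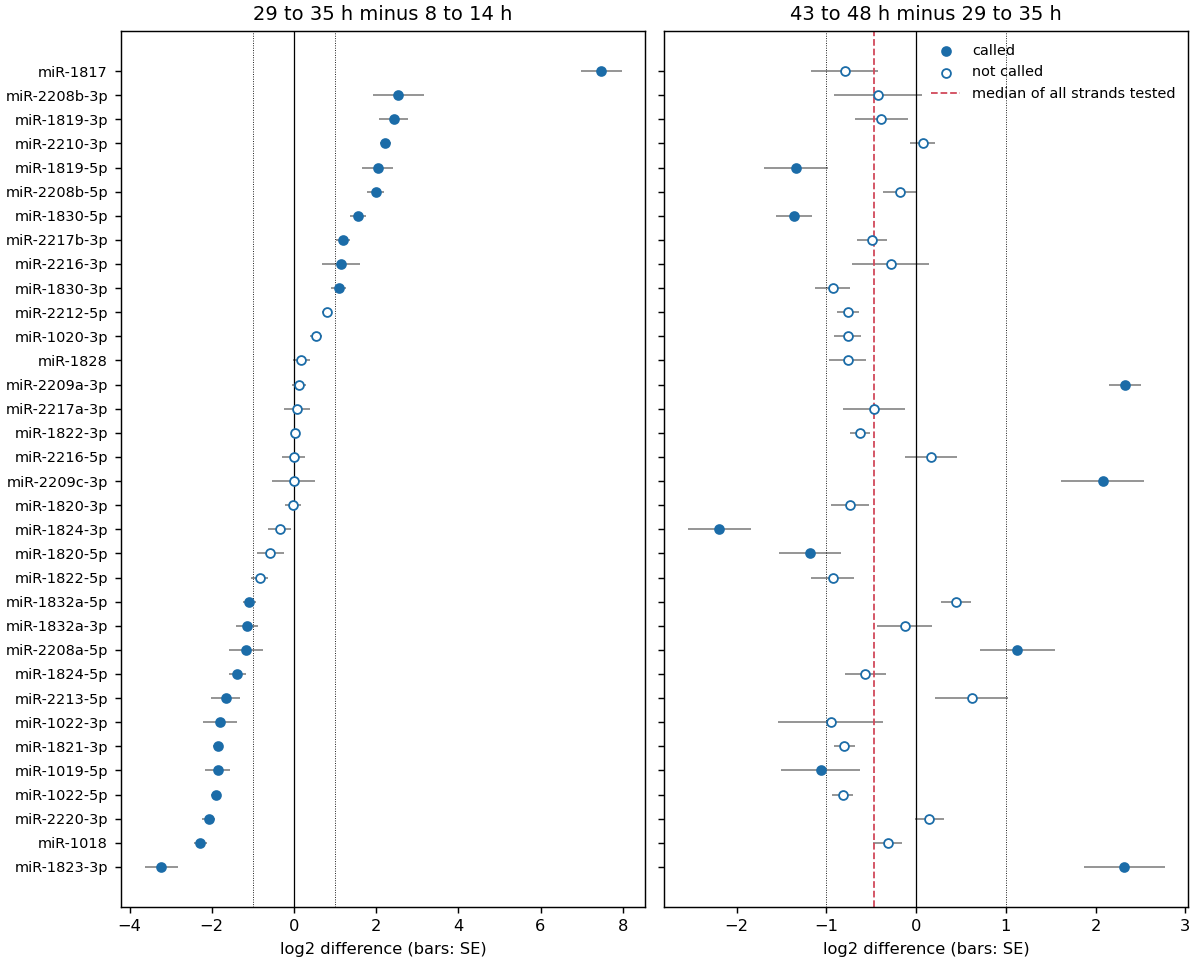
Log2 differences of the 34 strands between windows of hours, 29 to 35 h minus 8 to 14 h on the left and 43 to 48 h minus 29 to 35 h on the right, with bars for the SE. Filled points passed the call (adjusted p under 0.05 and at least 1 log2 unit, dotted lines), and the dashed line of the right panel is the median of all 300 strands tested, at -0.47. The strands miR-2209a-3p, miR-2209c-3p and miR-1823-3p stand apart on the right of the adult panel at 2.08 to 2.33. Differences of miR-2209c-3p, miR-2208b-3p and miR-1819-5p are descriptions, since each passed the limit of 5 counts through its highest window.

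Adults were compared with the last larval cycle. At 43 to 48 h against 29 to 35 h, 4 members were higher and 5 lower, where 12.0% of all strands were higher and 22.3% lower. The 4 include miR-2209c-3p, which passed the limit of 5 through the adult window. The 5 include miR-1819-5p, which passed it through the window of 29 to 35 h. The median of all strands was -0.47 log2 units (members -0.53), and it depended on the scaling, being -0.03 with TMM factors and -0.12 with DESeq2 size factors. With TMM factors 5 members were higher and 1 lower, where 52 of all strands tested were higher and 28 lower. The share of higher strands among all calls was then 65.0%, against 35.0% by library totals. The rise of the miR-35 family guides falls in the same hours, and its part in these differences was not tested. With totals that left that family out, the median of the strands tested was -0.33 log2 units. In that setting 4 members were higher and 4 lower, where 23 of the strands tested there were higher and 54 lower.

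Of the 4 strands higher in adults, 3 have hairpins within a stretch of chromosome IV. The hairpins of miR-2208a (1021772 to 1021832), miR-2208b (1026580 to 1026640), miR-2209a (1027101 to 1027164) and miR-2209c (1027218 to 1027281) lie on its plus strand. Both strands of miR-2208b were not called (-0.18 ± 0.19 for miR-2208b-5p and -0.43 ± 0.49 for miR-2208b-3p). The guide miR-2209a-3p had a U-shaped course, with medians of 246 normalised counts at 5 to 7 h, 181 at 8 to 14 h, 94.5 at 15 to 21 h, 109 at 22 to 28 h, 196 at 29 to 35 h (143 to 268), 496 at 36 to 42 h and 1036 at 43 to 48 h (846 to 1114). Its difference between 43 to 48 h and 29 to 35 h was 2.33 ± 0.18 log2 units (adjusted p = 9.94e-14), or 2.79 above the median of all strands, and no library overlapped. With autocorrelated residuals it was 0.52 (adjusted p = 0.325). The strand miR-2209c-3p, 54 nt away, had 9.58 to 22.7 at 43 to 48 h against 0 to 12.4 at 29 to 35 h, which overlap. Its difference of 2.08 ± 0.46 (adjusted p = 0.000166) is given as a description, since 102 of its 247 counts fell in 43 to 48 h and it averaged 3.82 counts in the other libraries, under the limit of 5. The strand miR-2208a-5p had 7.05 to 13.6 at 43 to 48 h against 1.04 to 5.86 at 29 to 35 h (1.13 ± 0.42, adjusted p = 0.0172), and was highest at the very start, with 20.4 to 30.6 at 5 to 7 h. Its adult and late larval libraries did not overlap, but this call was lost without the library of 29 h or 44 h (0.99 each). The near-namesake miR-2208b-5p did not share that course, with medians of 40.5 at 43 to 48 h and 45.8 at 29 to 35 h. Strands whose names differ by a letter are near in sequence, and reads that fit more than 1 place may have been shared between them.

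The fourth strand to be higher in adults was miR-1823-3p, which had 16.7 to 23.2 normalised counts at 5 to 7 h, a median of 15.1 at 8 to 14 h, 1.47 at 29 to 35 h (0 to 4.34) and 8.94 at 43 to 48 h (3.19 to 15.0). It thus fell by 3.23 ± 0.41 log2 units in larvae (adjusted p = 4.51e-09) and was higher by 2.32 ± 0.45 in adults (adjusted p = 2.57e-05). The larval windows did not overlap, and the adult libraries overlapped the late larval ones.

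Among the strands lower in adults, miR-1824-3p changed most. It had medians of 5.47 normalised counts at 43 to 48 h (1.82 to 9.97) and 27.1 at 29 to 35 h (21.8 to 33.9), and differed by -2.19 ± 0.35 log2 units (adjusted p = 1.23e-06) without overlap. The low levels began with 14.0 (39 h), 7.56 (40 h) and 1.10 (41 h). With autocorrelated residuals the difference was -0.92 (adjusted p = 0.101). This was the call that remained with TMM factors. The others were miR-1830-5p (-1.36 ± 0.20, adjusted p = 2.89e-07), miR-1819-5p (-1.34 ± 0.36, adjusted p = 0.00121), miR-1820-5p (-1.18 ± 0.35, adjusted p = 0.00295) and miR-1019-5p (-1.06 ± 0.44, adjusted p = 0.0291). The difference of miR-1819-5p is a description. This strand reached the limit of 5 counts through the window of 29 to 35 h, with a mean of 4.89 in the other libraries. The call of miR-1820-5p was lost without the library of 45 h (-0.99), and that of miR-1019-5p without the library of 30 h, 33 h, 46 h or 47 h (-0.72 to -1.24 over all libraries left out). The call of miR-1019-5p was also lost in 7 of 9 alternatives, with -0.66 (adjusted p = 0.233) by TMM factors, -0.75 (adjusted p = 0.144) by DESeq2 size factors and -0.27 (adjusted p = 0.325) with autocorrelated residuals.

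The 7 h rhythm was the next question. In the fit over the 28 libraries from 8 h to 35 h, with a linear trend and a cosine and sine of 7 h, 1 member of 34 oscillated, where 13.3% of all strands tested did. The call needed an adjusted p under 0.05 and 0.5 log2 units or more of amplitude, which is the height of the fitted peak above the trend. The member was the guide miR-2216-5p, whose hairpin lies in an intron of gmps-1, a GMP synthetase gene, on chromosome II (10867116 to 10867172, minus strand).

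The guide miR-2216-5p had an amplitude of 0.62 ± 0.13 log2 units (SE, adjusted p = 0.00203), which makes the fitted peak 2.36-fold higher than the trough, and the fitted peaks came 5.94 h after multiples of 7 h. At 8 to 14 h its level went between 15.8 normalised counts at 9 h and 115 at 13 h. At 15 to 21 h it went between 35.9 at 17 h and 95.4 at 19 h, and at 22 to 28 h between 39.1 at 23 h and 94.1 at 27 h. At 29 to 35 h the range was narrower, 47.6 at 31 h to 76.0 at 29 h. The highest value of a cycle was thus 7.30-fold, 2.65-fold, 2.41-fold and 1.60-fold above the lowest, and near 34 h, where the fitted curve peaks, the observed level was 54.0. The window that followed had the highest mean, with 89.1 to 110 in the 7 libraries of 36 to 42 h, and 59.1 to 88.8 came after them at 43 to 48 h. Over 15 h to 35 h alone the amplitude was 0.43 (adjusted p = 0.00741) and with a period of 6.5 h it was 0.45 (adjusted p = 0.129), both without a call. Without any 1 of the 28 libraries it stayed between 0.56 and 0.69 and was called each time.

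**Figure D4:**
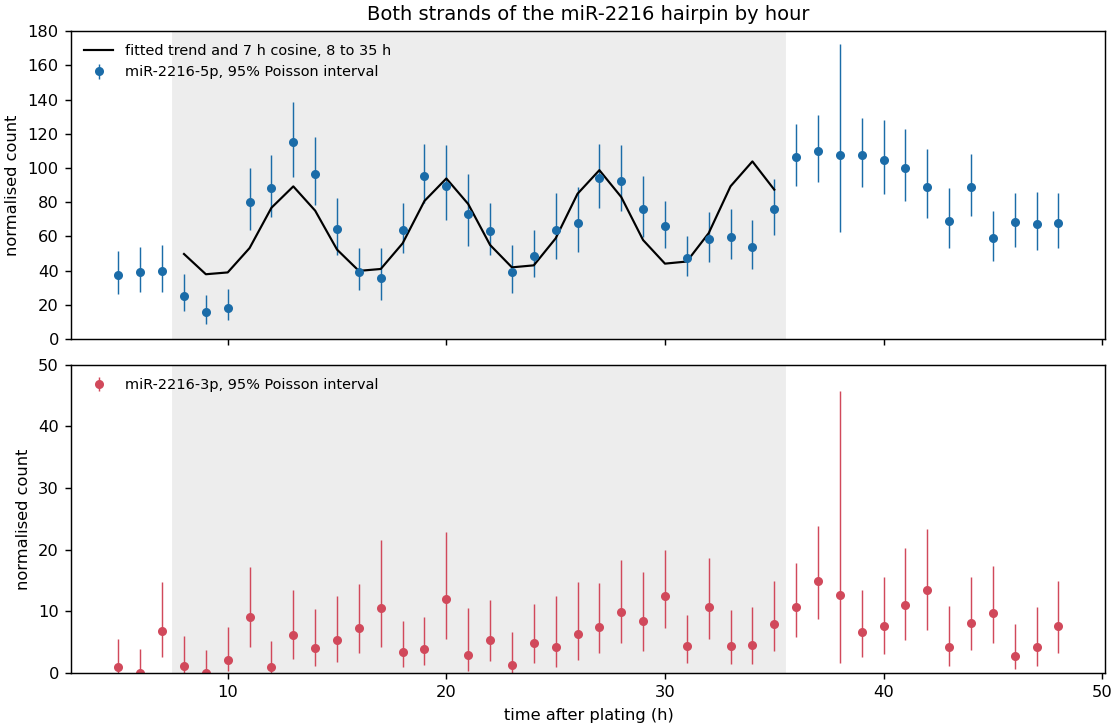
Normalised counts of miR-2216-5p (top) and miR-2216-3p (bottom) in each hourly library, with 95% Poisson intervals for counting error, and the fitted trend with a 7 h cosine for miR-2216-5p over 8 to 35 h (shaded). The guide has highs at 13 h, 19 h and 27 h, and the passenger stays at or under 14.8 normalised counts.

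Its passenger, miR-2216-3p, had between 0 and 12.4 normalised counts over the same hours and no call (amplitude 0.03 ± 0.24, adjusted p = 0.991). The other 33 members had amplitudes of 0.02 to 0.50 log2 units. The median over all 34 was 0.13, against 0.15 over all strands tested, and 3 members had an unadjusted p under 0.05, miR-2216-5p, miR-1824-3p (0.27 ± 0.09, adjusted p = 0.104) and miR-1830-3p (0.20 ± 0.07, adjusted p = 0.128).

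The amplitude was less well determined for the scarce strands. For 21 members the upper 95% bound of the amplitude lay under 0.5 log2 units, among them miR-1022-5p (0.12), miR-1018 (0.17), miR-1821-3p (0.14) and miR-1822-3p (0.14), so that a rhythm of the called size was outside their interval. For the other 12 uncalled members the bound reached at least 0.5, 11 of them with a mean under 10 counts and the other miR-1817 (amplitude 0.44 ± 0.40). Outside the group, 5.88% of strands with a mean of 5 to 10 counts oscillated, 10.3% of those with 10 to 100, 20.0% of those in the next class, up to 1000, and 15.3% of those above it. The group held 11, 9, 11 and 3 members in these classes, and miR-2216-5p came from the class of 10 to 100.

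Both strands were in the group for 9 hairpins, and these allowed the strand ratio to be followed within each library, where the scaling does not enter. The guide exceeded its passenger by a median of 6.26-fold, against 19.6-fold over all 116 hairpins with both strands tested. A hairpin entered only if its passenger also averaged at least 5 counts, which limits the ratio that a scarce guide can show. Hairpins with a scarcer passenger were left out. These medians thus depend on guide level and do not compare strand bias between the group and all hairpins. Among the 9 hairpins the ratio was widest for miR-1022, whose 5p strand was 407-fold above the 3p strand. Next were miR-1820 (30.1-fold, 5p) and miR-1822 (12.2-fold, 3p). The ratio was narrowest for miR-1819 (1.53-fold, 3p), miR-1824 (2.71-fold, 5p) and miR-1830 (2.79-fold, 3p), so that the roles of guide and passenger are not clear-cut there.

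The ratio had no 7 h rhythm in any of the 9 by edgeR, with none at an unadjusted p under 0.05, while 17.2% of all hairpins were called. The largest amplitude was that of miR-2216 (0.52 ± 0.21, adjusted p = 0.166). A steady change of at least 1 log2 unit between 8 h and 35 h was called for miR-1824 and miR-1822, where 25.9% of all hairpins were called.

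For miR-1824 the 5p to 3p ratio was 3.86 at 5 to 7 h, 3.47 at 8 to 14 h, 2.35 at 15 to 21 h, 2.0 at 22 to 28 h, 1.72 at 29 to 35 h, 3.26 at 36 to 42 h and 5.39 at 43 to 48 h. It changed by -1.26 ± 0.26 log2 units over 8 h to 35 h (adjusted p = 0.000365). Of its strands, miR-1824-5p fell by 1.82 ± 0.27 log2 units (adjusted p = 4.01e-07), while miR-1824-3p changed by -0.48 ± 0.22 (adjusted p = 0.0435), under the limit of 1. Between 43 to 48 h and 29 to 35 h the 3p strand was called lower and the 5p strand differed by -0.57 ± 0.23, and the ratio of these windows was not tested. Its locus on chromosome I lies opposite an intron of Y87G2A.18.

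For miR-1822, in an intron of ZK84.2 on chromosome II (6015534 to 6015627, plus strand), the ratio changed by -1.04 ± 0.29 (adjusted p = 0.00555). The passenger miR-1822-5p had medians of 31.7 normalised counts at 29 to 35 h (22.2 to 49.1) and 51.2 at 8 to 14 h (40.2 to 88.5). The guide miR-1822-3p had medians of 496 and 485 in these windows, and a difference of 0.03 ± 0.11 log2 units. The ratio call was lost without the library of 12 h, 13 h or 32 h (-0.83 to -1.17 over all libraries left out). The fall of miR-1822-5p (-1.05 ± 0.28, adjusted p = 0.00175) was lost in 6 of 9 alternatives, among them autocorrelated residuals (-0.62, adjusted p = 0.399) and the hours 8 to 28 (-0.50, adjusted p = 0.194), and without any of the libraries of hours 13, 14, 15, 32 and 35 (-0.93 to -1.16 over all libraries left out).

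**Figure D5:**
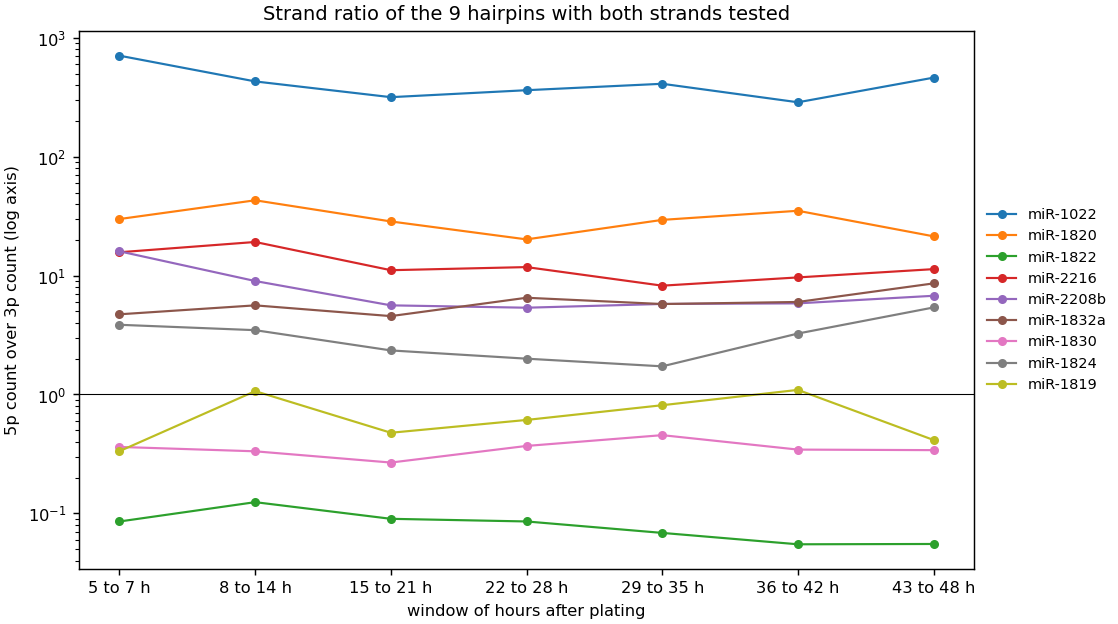
Ratio of the summed 5p to the summed 3p counts (log axis) in each window of hours for the 9 hairpins with both strands tested. The ratio of miR-1824 dips to 1.72 at 29 to 35 h and reaches 5.39 at 43 to 48 h, that of miR-1822 is 0.0552 in the last window, and that of miR-1022 is 287 or more throughout.

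Both strands of miR-1830, in an intron of paic-1, an enzyme gene of purine synthesis, on chromosome II (4371838 to 4371907, minus strand), rose in larvae, and the passenger was called lower in adults. The guide miR-1830-3p had a median of 187 normalised counts at 5 to 7 h (120 to 243), medians of 407 at 8 to 14 h and 884 at 29 to 35 h, and 424 at 43 to 48 h, and the passenger miR-1830-5p had medians of 62.2, 126, 379 and 151 in these windows. Their ratio changed by 0.72 ± 0.22 log2 units over 8 h to 35 h (adjusted p = 0.00999), under the limit of 1. Both strands of miR-1832a, in an intron of rsp-8, a splicing factor gene, on chromosome III (11829248 to 11829311, plus strand), went the other way. The guide miR-1832a-5p had medians of 165 at 8 to 14 h, 76.0 at 29 to 35 h, 51.2 at 36 to 42 h and 96.7 at 43 to 48 h, and the libraries of the last window lay wholly above those before it, by 1.91-fold in the mean. The strand miR-1828, in an intron of pash-1, the gene of Pasha, was highest in the middle of larval life, with medians of 78.1 at 5 to 7 h, 159 at 15 to 21 h, 150 at 22 to 28 h, 112 at 29 to 35 h and 67.9 at 43 to 48 h, and had no call in either comparison. The guide miR-2217b-3p, with medians of 69.8 at 29 to 35 h and 32.8 at 8 to 14 h, has 4 annotated loci, so its counts cannot be assigned to 1 of them.

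The strand miR-1820-5p was irregular between hours. It had 3004, 1914, 747 and 1690 normalised counts in the libraries from 11 h to 14 h, and 748, 175, 839 and 329 in those from 44 h to 47 h. Its median departure from the mean of the neighbouring hours was 0.36 log2 units, which put it in position 2 of the 205 strands with a mean of at least 100 counts (median 0.13). The passenger miR-1820-3p had 36.0 at 13 h and 26.5 at 45 h, near its neighbours. The same libraries were low for miR-1830-3p, at 252 at 13 h and 190 at 45 h, between 407 and 459 and between 583 and 502. They were also low for miR-2212-5p, at 154 between 178 and 232 and at 132 between 254 and 239. Other members did not dip, such as miR-1822-5p with 88.5 at 13 h, between 69.7 and 80.4. At 45 h miR-1821-3p had 184, between 153 and 140. Over all strands tested the median departure of the 13 h and 45 h libraries was 0.23 and 0.20 log2 units, in positions 3 and 5 from the highest of the 44 libraries. Whether these dips come from the libraries was not tested.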

How the data were processed

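The authors trimmed reads with QuasR, aligned them to ce10 with Bowtie (reads with several hits were kept, so repeated loci can share reads), and counted reads starting near annotated mature 5' ends from miRBase. The deposited counts were used for all tests. The deposited log2 values were made by the authors from those counts, scaled to the mean total with 8 added, and matched them within 5e-04. They were not tested. Fits used edgeR 4.0.16 under R 4.3.3, with DESeq2 1.42.0, limma 3.58.1 and nlme 3.1.168 for alternatives. All 300 strands with a mean of at least 5 counts entered, scaled by total count as in the study, and p-values were adjusted over all of them, or over 116 hairpins for ratios. The rhythm model had 24 and the window model 37 residual degrees of freedom. Of each hairpin, the strand of higher mean was called the guide. Intervals and 0 counts reflect counting error only, since PCR copies are not independent molecules. Positions and hosts come from the WBcel235 annotation, and none were converted from ce10. Sequences and shared seeds were not analysed here. Scripts were tested on simulated data.

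Named strands were the 6 most abundant, any rhythmic one, the 6 largest called changes per direction and comparison, both strands of the 9 hairpins, list members, and the strands next to the limit of 5. Members, lists and tests were chosen with earlier results of these data known. Alternatives were TMM and DESeq2 factors, the DESeq2 test, limma on log2(normalised count + 8), other filters, windows, periods and trends, autocorrelated residuals, and each library left out.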

Additional observations from a re-analysis of the deposited data

How the results depend on the processing

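No paired analysis was possible because each hour had 1 library. The single rhythmic member was not called over 15 h to 35 h or with a period of 6.5 h (0 each), and leaving out any 1 of 28 libraries left 1. Rises over 8 h to 35 h numbered 7 instead of 11 with a mean count of at least 10, with autocorrelated residuals and over 15 h to 35 h, and falls 8 instead of 13 with that filter, which tests fewer members. Between the larval cycles, limma on log2(normalised count + 8) called 6 higher and 7 lower, the filter of 10 called 6 and 7, and autocorrelated residuals 5 and 4, against 10 and 12, and miR-1022-5p reversed there to 0.0802. In adults, the numbers higher were 2 with limma, 1 with the filter of 10 and 1 with autocorrelated residuals, against 4. The numbers lower were 1 with TMM factors and 3 with DESeq2 size factors, the DESeq2 test, the filter of 10 and autocorrelated residuals, against 5. With TMM factors 7 members instead of 11 were highest at 22 to 35 h and 10 instead of 6 at 36 to 48 h, and the median larval difference of all strands was 0.14 instead of 0.00. Stage differences numbered 25 with autocorrelated residuals, against 33. Without 1 library the ratio changes numbered 1 to 3 (2 with all libraries), the larval differences 9 to 10 higher and 11 to 12 lower, and the adult ones 3 to 4 and 4 to 6. Limma and the autocorrelated fit add 8 to each value, which shrinks differences of scarce strands. The strands miR-1022-5p, miR-1018 and miR-1817 are among the 6 most abundant members, and their larval windows did not overlap. Why the autocorrelated fit gave small window differences for these strands was not tested. The adult call of miR-1019-5p was lost in 7 and the larval fall of miR-1822-5p in 6 of 9 alternatives. The fall of miR-2208a-5p and the rise of miR-2216-3p (adjusted p = 0.0499) were lost in 4 and 5 of 8, and that of miR-2216-3p also without 19 of 28 libraries in turn. Over the 58 single calls, 115 of 1700 combinations of call and setting lost the call and 1 reversed. For each call these combinations pool the leaving out of 13 to 28 single libraries with 2 to 12 other settings. The share lost is therefore no measure of dependence on the method alone. Dropping the 38 h library and leaving the miR-35 family out of totals were chosen after seeing the data. Scarce strands limit the group, since 20 of 34 average under 100 normalised counts.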
